A study of Mus musculus with 16 samples.

Results

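The genes described here encode the subunits of the 5 complexes of oxidative phosphorylation. They were chosen by symbol alone: Nduf names for complex I, Sdha to Sdhd for complex II, Uqcr names for complex III, Cox4 to Cox8 names for complex IV and Atp5 names for complex V, without assembly factors and without Atp5s. The choice gave 82 of the 18194 genes that the arrays measured under exactly 1 symbol, with 36 members in complex I, 4 in complex II, 8 in complex III, 17 in complex IV and 17 in complex V. Ndufa4 and its relative Ndufa4l2 were counted with complex I by name, although the NDUFA4 protein is now assigned to complex IV. Cyc1, which encodes cytochrome c1 of complex III, has another kind of name and was placed among the electron carriers.

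The RNA came from cells sorted as tumour-associated macrophages by lavage of the peritoneum, in C57BL/6N female mice that carried ID8-luc, an ovarian cancer line with a luciferase reporter. All mice, controls included, were described as receiving tamoxifen by gavage at 8 to 12 weeks of age. Tumour cells went into the peritoneum 3 weeks later, and cells were sorted after 4 weeks of growth. Tamoxifen in RbpjiΔEC mice removes Rbpj, the DNA-binding partner of Notch, in endothelial cells, so the sorted cells themselves are not the target and their Rbpj level checks nothing. The promoter that drives the deletion and the full genotype of the controls are not given in the sources used here. The sort took cells with CD45, CD11b and the macrophage surface protein encoded by Adgre1, labelled CCR2+ or CCR2-, which gives 4 groups of 4 arrays each. Nothing in the labels says that the 4 arrays of a group come from separate mice, so the p-values measure the spread between these arrays, which may be technical.

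Oxidative phosphorylation couples the oxidation of NADH and succinate to ATP synthesis. Complexes I and II pass electrons through ubiquinone to complex III and then through cytochrome c to complex IV, which reduces oxygen, while complexes I, III and IV pump protons that drive the rotary ATP synthase, complex V. Most subunits are encoded in the nucleus and a few core subunits in mitochondrial DNA, and macrophages are known to differ in their reliance on this pathway with their activation state.

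Several features of the arrays bear on every comparison between the sort labels. The 8 deposited columns labelled CCR2+ had array means between 821 and 827 intensity units and the 8 labelled CCR2- between 481 and 762, so sort label and kind of column cannot be told apart. Of 15 large peritoneal macrophage markers 15 were called higher in the arrays labelled CCR2+ of control mice, and of 12 B cell markers 12 were called lower. The mean log2 level of the macrophage list was 12.65 to 12.82 in those arrays against 8.60 to 8.91 in the arrays labelled CCR2- of control mice, and in RbpjiΔEC mice 12.70 to 12.79 against 8.42 to 8.74. That of the B cell list was 7.74 to 7.95 against 12.15 to 12.22 in control mice, and 7.80 to 7.93 against 12.17 to 12.28 in RbpjiΔEC mice. Ccr2 itself went against the label, with mean log2 levels of 7.99 and 7.69 in the arrays labelled CCR2+ of control and RbpjiΔEC mice, and of 9.99 and 8.94 in those labelled CCR2-. Other marker lists differed by less. In control mice dendritic cell markers averaged 8.79 with the label CCR2- against 7.36 with CCR2+, and monocyte and small macrophage markers 10.09 against 9.29. Neutrophil markers went the other way, at 7.60 against 7.87. The comparison of labels is therefore mainly one between arrays rich in macrophage marker RNA and arrays rich in B cell marker RNA. How far each subunit gene's difference goes with any of these cells was not tested. In sorted bulk samples like these, fewer cells of a type and less RNA per cell cannot be told apart.

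Promoter sequences of the members with the largest called difference between the labels in each complex are shown because regulators of these genes are known to act close to the start site. These are the largest called higher member of each complex and the largest called lower member of complex I, while the window of Atp5a1, the largest called lower member of complex V, is not printed. The letters searched were GCGCATGC and the shorter TGCGCA for NRF1, CCGGAAG for ETS factors such as GABP, and GGGCGG for SP1, each on both strands. The 2 NRF1 spellings can overlap. Windows cover the 250 bases before the gene start, from RefSeq on GRCm38.p6, and were at hand for 67 of the 82 members, matched by gene ID. They are written 5′ to 3′ on the gene's strand, with every match to one of these letters in capitals. All 6 genes shown lie on the minus strand: Uqcr11 at chr10:80406822-80407071, Sdhd at chr9:50603850-50604099, Cox6b1 at chr7:30626115-30626364, Atp5l at chr9:44920743-44920992, Ndufa4 at chr6:11907451-11907700 and Ndufab1 at chr7:122101849-122102098.
Uqcr11: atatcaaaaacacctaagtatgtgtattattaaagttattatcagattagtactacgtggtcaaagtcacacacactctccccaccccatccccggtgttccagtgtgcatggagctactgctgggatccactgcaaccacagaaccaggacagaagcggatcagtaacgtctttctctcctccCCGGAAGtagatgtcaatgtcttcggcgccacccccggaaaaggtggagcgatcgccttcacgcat
Sdhd: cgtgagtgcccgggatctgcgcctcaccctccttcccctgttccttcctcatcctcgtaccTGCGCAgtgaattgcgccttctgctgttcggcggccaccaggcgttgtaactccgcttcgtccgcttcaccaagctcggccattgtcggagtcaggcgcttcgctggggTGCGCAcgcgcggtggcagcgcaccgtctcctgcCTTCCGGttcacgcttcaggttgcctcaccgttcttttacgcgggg
Cox6b1: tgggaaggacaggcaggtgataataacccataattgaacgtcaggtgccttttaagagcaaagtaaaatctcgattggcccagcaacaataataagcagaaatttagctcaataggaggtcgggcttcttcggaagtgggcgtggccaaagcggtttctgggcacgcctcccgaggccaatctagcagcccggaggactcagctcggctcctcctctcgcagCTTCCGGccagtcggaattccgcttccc
Atp5l: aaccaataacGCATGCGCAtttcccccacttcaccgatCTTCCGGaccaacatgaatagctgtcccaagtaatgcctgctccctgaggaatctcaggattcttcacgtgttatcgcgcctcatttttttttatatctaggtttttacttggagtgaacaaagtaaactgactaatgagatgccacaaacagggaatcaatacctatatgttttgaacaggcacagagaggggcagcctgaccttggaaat
Ndufa4: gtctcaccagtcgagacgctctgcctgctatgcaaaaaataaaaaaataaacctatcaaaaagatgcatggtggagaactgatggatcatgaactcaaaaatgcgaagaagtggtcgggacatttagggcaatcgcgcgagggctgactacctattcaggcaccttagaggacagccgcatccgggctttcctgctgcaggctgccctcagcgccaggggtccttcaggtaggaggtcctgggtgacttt
Ndufab1: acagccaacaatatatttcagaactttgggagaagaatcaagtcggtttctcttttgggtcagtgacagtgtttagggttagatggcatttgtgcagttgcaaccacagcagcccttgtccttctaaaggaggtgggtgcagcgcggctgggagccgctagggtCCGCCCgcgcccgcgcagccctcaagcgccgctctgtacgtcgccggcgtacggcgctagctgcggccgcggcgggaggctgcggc

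The ETS letters stand in the windows of Uqcr11, Sdhd, Cox6b1 and Atp5l, those of NRF1 in Sdhd and Atp5l, and those of SP1 in Ndufab1. None of the letters stand in the window of Ndufa4. Over the 67 members, GCGCATGC stood in 7 windows (10.4%), against 2.56% of the 27025 genes with a window. TGCGCA stood in 13 (19.4%, against 7.36%), CCGGAAG in 12 (17.9%, against 7.83%) and GGGCGG in 26 (38.8%, against 35.4%). NRF1 or ETS letters stood in 24 of the 67 windows (35.8%), against 14.9% of all genes with a window. Of the 22 members with a window that were called higher in the arrays labelled CCR2+ of control mice, 10 held NRF1 or ETS letters, and of the 45 other members 14 did, a difference that was not tested. A match describes letters in a window and is not a binding site.

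The subunit genes were strongly measured. On the log2 scale after quantile normalization over the 16 arrays, the mean levels of the members ran from 6.11 to 13.32 with a median of 11.29, the 91.9th percentile of all genes, whose median was 8.25. Of the 82 members 81 lay above the lowest tercile of all genes, and 9 had a mean under 8.5. Levels of different genes are probe set readings and are not compared with each other below.

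In control mice 26 subunit genes were called higher and 3 lower in the arrays labelled CCR2+ than in those labelled CCR2- (limma, Benjamini-Hochberg adjusted p under 0.05 over all genes). The 29 called members are 35.4% of the 82, against 40.8% of all genes, an order that turned under other scalings of the arrays, given below. The called members lay mostly on one side, with 31.7% higher against 19.4% of all genes and 3.66% lower against 21.4%. The differences were small: only Uqcr11 and Ndufa4 were both called and at least 2-fold apart, which is 2.44% of the members against 13.9% of all genes. The median difference over the members was 0.24 log2 units, against −0.03 over all genes, and 66 of 82 estimates were positive. With the genes of the lowest tercile left out, 31 of 81 members (38.3%) were called against 54.3% of all genes.

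In RbpjiΔEC mice, measured on separate arrays, 16 members were called higher and 4 lower. Both label comparisons came from the same normalization and fit over 16 arrays, which share the spread of each gene. Their calls are therefore not fully independent. The 20 called members are 24.4% of the 82 against 39.1% of all genes, with 19.5% higher against 18.1% and 4.88% lower against 21.0%. The median difference was 0.11 and 52 of 82 estimates were positive. All 16 members called higher in RbpjiΔEC mice were also called higher in control mice, where they made up 61.5% of the higher calls. Over all genes 2858 calls were shared in that direction, 80.9% of those in control mice and 86.9% of those in RbpjiΔEC mice. No member was called in opposite directions. The shared genes were Ndufa1, Ndufa4, Ndufb2, Ndufb6, Ndufb8, Ndufb9 and Ndufc1 of complex I, Sdhd of complex II, Uqcr10, Uqcr11 and Uqcrb of complex III, Cox5a, Cox6a1 and Cox8a of complex IV, and Atp5md and Atp5mpl of complex V.

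**Figure D1:**
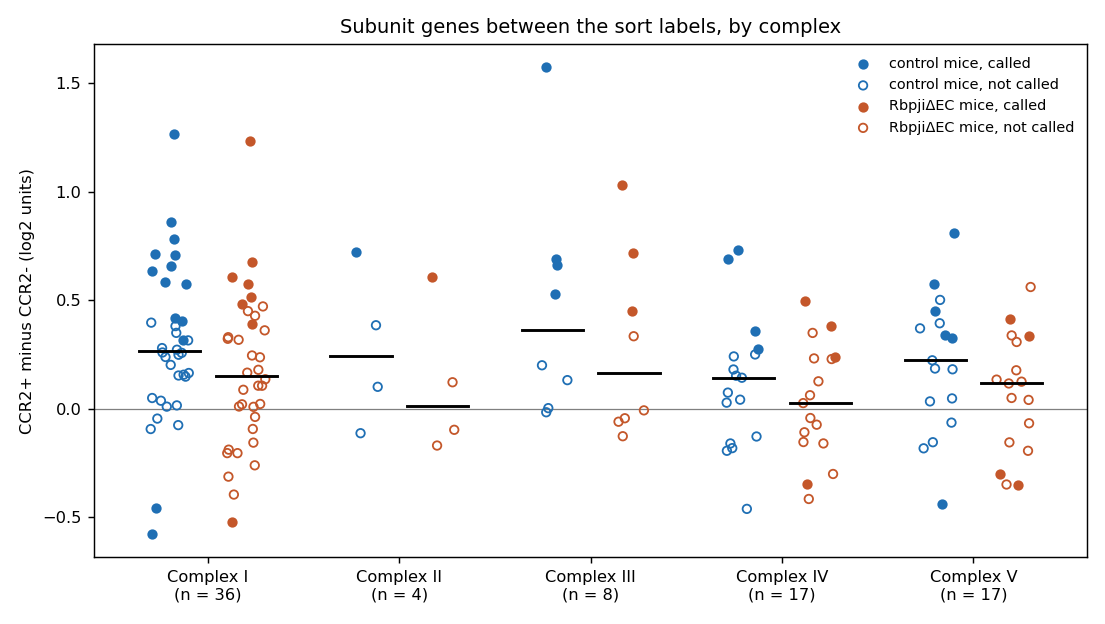
Difference between the arrays labelled CCR2+ and CCR2- (log2 units, y axis) of each of the 82 subunit genes by complex, in control and RbpjiΔEC mice, with 4 arrays a group. Filled points were called at a limma adjusted p under 0.05, and black bars are medians. Uqcr11 is the highest point of complex III in both genotypes, at 1.57 and 1.03, and most points of every complex lie within 1 log2 unit of 0.

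The size of the difference between labels depended on how the arrays were scaled, and for some members its direction did too. Median centring gave 57 members higher and 0 lower in control mice, which is 69.5% higher against 24.2% of all genes, with 14.3% of all genes lower. Quantile normalization within each label followed by median centring gave 64 higher and 2 lower, which is 78.0% and 2.44% of the members against 26.9% and 24.2% of all genes. The median difference over the members was then 0.73 and 0.65, while that over all genes stayed at −0.03 and −0.05. In RbpjiΔEC mice the corresponding counts were 31 higher and 2 lower (37.8% and 2.44%) against 19.4% and 15.6% of all genes, and 53 higher and 2 lower (64.6% and 2.44%) against 24.9% and 22.2%. The medians over the members there were 0.45 and 0.50. The members were mostly strongly measured, with a median level at the 91.9th percentile, so all genes are not matched to them in level. Deposited array medians ran from 234 to 249 with the label CCR2+ and from 187 to 270 with CCR2-. The array means were 821 to 827 and 481 to 762. Whether other genes of such levels moved alike under these scalings was not tested. All 26 higher calls in control mice and all 16 in RbpjiΔEC mice were made under each of the 3 scalings. Of the 3 lower calls in control mice none was, and of the 4 in RbpjiΔEC mice 1 was. The sign of the difference was the same under the 3 scalings for 72 members in control mice and 62 in RbpjiΔEC mice. Of the 53 members not called in control mice, 31 were called higher under both other scalings and 38 under at least 1. Of the 62 not called in RbpjiΔEC mice these numbers were 15 and 37. Unless a scaling is named, calls and values below are those with quantile normalization over 16 arrays, and a member described as not called there may be called under another scaling.

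**Figure D2:**
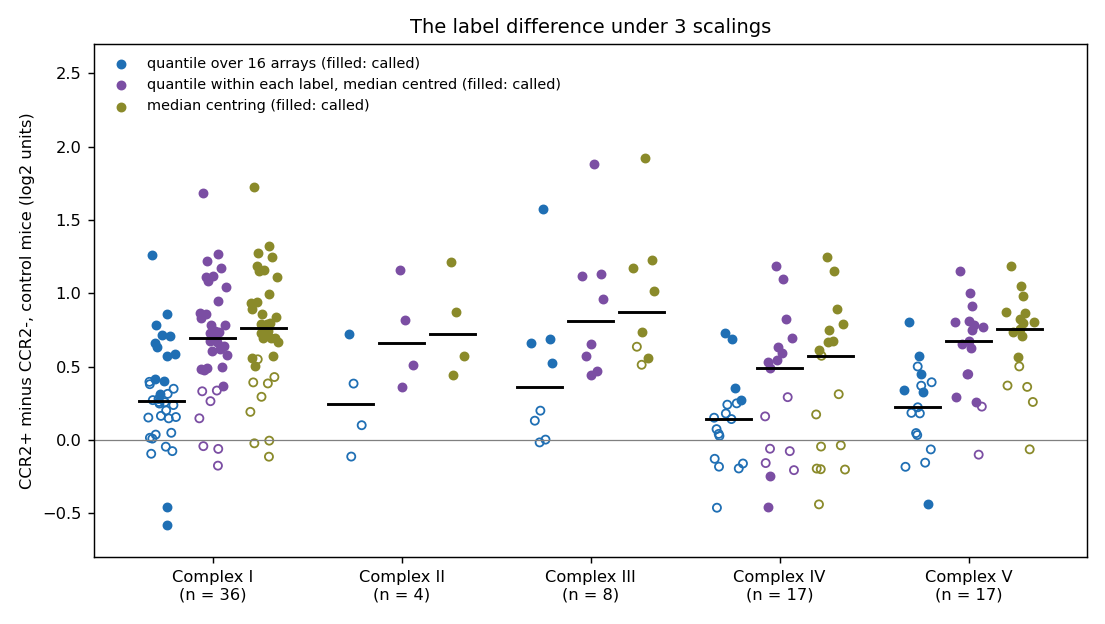
Difference between the labels in control mice (log2 units, y axis) of the 82 subunit genes by complex under 3 ways of scaling the arrays. Filled points were called at a limma adjusted p under 0.05, and black bars are medians. The bars lie lowest for quantile normalization over 16 arrays, where 26 members were called higher, against 64 and 57 under the other scalings.

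Complex I takes electrons from NADH. Its measured core subunits encoded in the nucleus were Ndufs1, Ndufs3, Ndufs7, Ndufs8, Ndufv1 and Ndufv2. Of these 6 genes none was called higher and 1 was called lower in control mice, with a median difference of 0.11. Under median centring and quantile normalization within labels 4 and 5 of these 6 were called higher and none lower, with medians of 0.63 and 0.56. Other probe sets gave 0.21 and 0.18 for Ndufv1 in control mice, against −0.08 for the one used. For Ndufv2 they gave 0.57 and 0.56 against 0.20, and for Ndufs7 0.45 against 0.24. Every other probe set of Ndufs8 was negative. Of the 11 accessory subunits with Ndufb names, which sit in the membrane arm, 5 were called higher and none lower, with a median of 0.35, and 8 were called higher under each of the other scalings. Of the 17 other accessory subunits 6 were called higher and 1 lower, with a median of 0.27, and under the other scalings 14 and 15 were called higher. In RbpjiΔEC mice the same 3 groups had 0, 4 and 2 members called higher, 1, 0 and 0 called lower, and medians of −0.07, 0.32 and 0.14. These groups were drawn up with the values known.

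Ndufa4 had the largest difference among the members with complex I names. Its log2 level was 11.33, 11.81, 11.81 and 12.36 in arrays 1 to 4 labelled CCR2+ of control mice, and 11.36, 11.34, 11.82 and 11.96 in those of RbpjiΔEC mice. In the arrays labelled CCR2- it was 10.11, 10.71, 10.28 and 11.14 in control mice and 10.70, 10.34, 9.62 and 10.90 in RbpjiΔEC mice. Every array labelled CCR2+ lay above every array labelled CCR2-, with array 4 highest in both control groups. The difference was 1.26 ± 0.28 (SE) in control mice (adjusted p = 0.00162) and 1.23 ± 0.28 in RbpjiΔEC mice (adjusted p = 0.00211).

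Ndufb8, an accessory subunit of the membrane arm, had a narrow spread. Its level was 12.33, 12.24, 12.23 and 12.44 in arrays 1 to 4 labelled CCR2+ of control mice, and 12.34, 12.29, 12.31 and 12.30 in those of RbpjiΔEC mice. The arrays labelled CCR2- gave 11.38, 11.65, 11.60 and 11.78 in control mice and 11.36, 11.69, 11.65 and 11.83 in RbpjiΔEC mice. The groups of the 2 labels did not overlap in either genotype, and array 1 was the lowest of both groups labelled CCR2-. The differences were 0.71 ± 0.10 (adjusted p = 2.71e-05) and 0.68 ± 0.10 (adjusted p = 4.48e-05). Ndufb8 and the genes in the next sentence were picked after their values were seen. Among the other membrane arm subunits, Ndufb2 differed by 0.86 ± 0.21 in control mice (adjusted p = 0.00355), Ndufb9 by 0.78 ± 0.18 (adjusted p = 0.00213) and Ndufb6 by 0.71 ± 0.12 (adjusted p = 0.000126), and all 3 were also called in RbpjiΔEC mice, at 0.57, 0.51 and 0.61. Another probe set of Ndufb9 gave −1.52 in control and −1.41 in RbpjiΔEC mice, and another of Ndufb2 gave −0.41 and −0.29. The remaining probe sets of these genes were positive in both genotypes.

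Ndufab1, the mitochondrial acyl carrier protein that doubles as a complex I subunit, moved the other way. Its level was 10.65, 10.88, 10.25 and 10.29 in arrays 1 to 4 labelled CCR2+ of control mice, and 10.77, 10.55, 10.79 and 10.82 in those of RbpjiΔEC mice. In the arrays labelled CCR2- it was 11.43, 10.92, 11.24 and 10.80 in control mice and 11.26, 11.01, 10.69 and 11.22 in RbpjiΔEC mice. The groups overlapped in both genotypes. The difference of −0.58 ± 0.17 was called in control mice (adjusted p = 0.0102), and that of −0.31 ± 0.17 in RbpjiΔEC mice was not (adjusted p = 0.158). In control mice it was −0.11 under median centring (adjusted p = 0.591) and −0.17 under quantile normalization within labels (adjusted p = 0.399), and so was not called there. Of its 5 probe sets 4 were negative in control mice and 1 was positive. The core subunit Ndufs8 was called lower in both genotypes, at −0.46 ± 0.15 (adjusted p = 0.0223) and −0.52 ± 0.15 (adjusted p = 0.011). Neither call was made under the other scalings, which gave Ndufs8 differences of −0.0040 and −0.06 in control mice (adjusted p = 0.99 and 0.764) and −0.19 and −0.13 in RbpjiΔEC mice (adjusted p = 0.555 and 0.513).

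Complex II is succinate dehydrogenase, shared with the tricarboxylic acid cycle. Of its 4 subunits Sdhd, a membrane anchor, was called higher, and Sdha and Sdhb, the catalytic subunits, and Sdhc, the other anchor, were not called, at −0.11, 0.38 and 0.10 in control mice. All 4 were called higher there under both other scalings, with Sdha, the one that changed sign, at 0.45 under median centring (adjusted p = 0.0495) and 0.36 under quantile normalization within labels (adjusted p = 0.0019). A second probe set of Sdhc gave 0.52 in control and 0.25 in RbpjiΔEC mice, against 0.10 and −0.10 for the one used. The other probe sets of Sdha were negative in both genotypes. Sdhd was at 11.40, 11.51, 11.45 and 11.88 in arrays 1 to 4 labelled CCR2+ of control mice, and at 11.16, 11.37, 11.59 and 11.55 in those of RbpjiΔEC mice. Under the label CCR2- it was at 10.47, 10.88, 10.78 and 11.21 in control mice and at 10.54, 10.83, 10.99 and 10.90 in RbpjiΔEC mice. The groups of the 2 labels did not overlap within either genotype, and array 4 was the highest of both control groups. The differences were 0.72 ± 0.15 (adjusted p = 0.0011) and 0.61 ± 0.15 (adjusted p = 0.00449), and the second probe set of the gene gave 0.76 and 0.64.

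Complex III passes electrons from ubiquinol to cytochrome c. Its small subunits, which surround the catalytic core, were called higher in 4 of 5 cases in control mice, with a median difference of 0.66. The core proteins Uqcrc1 and Uqcrc2 and the Rieske iron-sulfur protein Uqcrfs1 were called in no case, at −0.02, 0.00 and 0.13. Under quantile normalization within labels these 3 were called higher, at 0.44, 0.47 and 0.57, and under median centring Uqcrc2 was, at 0.56. A second probe set of Uqcrc2 gave 0.41 in control and 0.32 in RbpjiΔEC mice, against 0.00 and −0.04 for the one used. In RbpjiΔEC mice 3 of the 5 small subunits were called higher and again none of the other 3 genes was called. Uqcrb differed by 0.69 ± 0.12 in control mice (adjusted p = 0.000145), although its second probe set gave −0.18. Uqcrq differed by 0.66 ± 0.21 (adjusted p = 0.0183) and Uqcr10 by 0.53 ± 0.13 (adjusted p = 0.00448), while the hinge protein gene Uqcrh stood at 0.20 ± 0.18 and was not called, but was called under both other scalings (0.73 and 0.66). A second probe set of Uqcrh gave 0.68 in control and 0.39 in RbpjiΔEC mice. The contrast between small subunits and core thus depends on the probe set as well as on the scaling.

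Uqcr11, another small subunit of complex III, had the largest difference of all members in control mice. Its level was 10.69, 10.72, 10.41 and 11.51 in arrays 1 to 4 labelled CCR2+ of control mice, and 10.17, 10.77, 10.50 and 10.68 in those of RbpjiΔEC mice. The arrays labelled CCR2- gave 9.28, 8.95, 9.39 and 9.42 in control mice and 9.55, 9.52, 9.73 and 9.18 in RbpjiΔEC mice. The labels were separated in both genotypes, by about 1 log2 unit between the nearest control arrays, and array 4 labelled CCR2+ of control mice was the highest of the 16. The differences were 1.57 ± 0.20 (adjusted p = 7.09e-06) and 1.03 ± 0.20 (adjusted p = 0.000548).

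Complex IV, cytochrome c oxidase, has subunits with 2 or more isoforms. Of the 10 subunit genes other than restricted isoforms 4 were called higher in control mice and 3 in RbpjiΔEC mice, with none lower and medians of 0.21 and 0.09. In control mice 8 of these 10 were called higher under median centring and 9 under quantile normalization within labels. Of the 7 isoforms known from restricted tissues none was called in control mice and 1 was called lower in RbpjiΔEC mice, with medians of −0.13 and −0.15. The 4 genes called in control mice were Cox6b1, Cox8a at 0.69 ± 0.19 (adjusted p = 0.00659), Cox5a at 0.36 ± 0.12 (adjusted p = 0.0196) and Cox6a1 at 0.28 ± 0.08 (adjusted p = 0.00819).

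Cox6b1, the ubiquitous isoform of the subunit at the interface of the dimer, differed by 0.73 ± 0.19 in control mice (adjusted p = 0.006) and by 0.23 ± 0.19 in RbpjiΔEC mice (adjusted p = 0.387), the latter not called. In RbpjiΔEC mice the difference was 0.62 under median centring (adjusted p = 0.0466) and 0.69 under quantile normalization within labels (adjusted p = 0.00807), both called. Its level was 11.90, 11.85, 11.55 and 12.50 in arrays 1 to 4 labelled CCR2+ of control mice, and 11.19, 11.84, 11.63 and 11.54 in those of RbpjiΔEC mice. In the arrays labelled CCR2- it was 10.80, 11.14, 11.45 and 11.47 in control mice and 11.37, 11.16, 11.56 and 11.18 in RbpjiΔEC mice. The labels did not overlap in control mice and did overlap in RbpjiΔEC mice. The difference between the genotypes in this contrast was −0.50 ± 0.28 (interaction, limma adjusted p = 0.999, not called). A second probe set of Cox6b1 had nearly the same mean level (11.45 against 11.51). It gave 0.76 in control and 0.53 in RbpjiΔEC mice, nearer to each other than the 0.73 and 0.23 of the one used.

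Cox8a, the liver-type subunit VIII isoform that most tissues use, was at 11.13, 11.26, 11.16 and 11.45 in arrays 1 to 4 labelled CCR2+ of control mice and at 10.62, 10.93, 10.83 and 11.22 in those of RbpjiΔEC mice. With the label CCR2- it was at 9.97, 10.69, 10.72 and 10.86 in control mice and at 10.09, 10.61, 10.21 and 10.70 in RbpjiΔEC mice. The labels were apart in control mice, and in RbpjiΔEC mice array 1 labelled CCR2+ lay within the range of the arrays labelled CCR2-. Cox6a1, the isoform of most tissues other than heart and skeletal muscle, was at 13.00, 12.85, 12.92 and 12.90 in control mice and 12.98, 12.83, 12.84 and 12.84 in RbpjiΔEC mice for the arrays labelled CCR2+. For the arrays labelled CCR2- it was at 12.55, 12.67, 12.65 and 12.69, and at 12.55, 12.68, 12.78 and 12.52. These groups did not overlap within either genotype, and their spread was narrow.

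The common isoforms Cox4i1, Cox7a2 and Cox7a2l were called only under other scalings. Cox4i1, the usual form of the largest nuclear-encoded subunit, was at 12.59, 12.18, 12.30 and 12.49 in arrays 1 to 4 labelled CCR2+ of control mice, at 12.37, 12.55, 12.10 and 12.02 in those of RbpjiΔEC mice, and in the arrays labelled CCR2- at 11.91, 12.51, 12.26 and 12.57 and at 12.29, 12.30, 12.44 and 12.44. Cox7a2, the isoform of most tissues, was at 13.15, 13.25, 13.04 and 13.65, at 12.97, 13.05, 13.29 and 13.25, at 13.06, 13.01, 13.09 and 13.21, and at 13.06, 13.08, 13.06 and 13.11 in the same order of groups. Cox7a2l, known for its part in joining complexes III and IV, was at 12.05, 12.34, 11.96 and 12.45, at 11.90, 12.30, 12.20 and 12.32, at 11.76, 12.43, 12.05 and 12.45, and at 12.07, 12.10, 12.28 and 12.17. All 3 overlapped between the labels in both genotypes, with differences in control mice of 0.07, 0.18 and 0.03. Under median centring the differences were 0.61 (adjusted p = 0.0385), 0.67 (adjusted p = 0.00623) and 0.57 (adjusted p = 0.0602), and under quantile normalization within labels 0.53 (adjusted p = 0.00642), 0.55 (adjusted p = 0.000347) and 0.49 (adjusted p = 0.0133), so that only Cox7a2l under median centring was not called. In RbpjiΔEC mice quantile normalization within labels gave calls for Cox7a2 at 0.45 and Cox7a2l at 0.49.

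No array read any of the 7 isoforms of restricted tissues above 9.24. Cox4i2, known from lung and low oxygen, lay between 7.17 and 7.67 in the arrays labelled CCR2+ and between 7.30 and 8.15 in those labelled CCR2-. Cox6a2, the muscle form, lay between 8.47 and 8.85 and between 8.38 and 9.24, and Cox6b2, the testis form, between 7.18 and 7.75 and between 7.48 and 7.76. All of these ranges overlap. Cox7a1, a muscle form, lay between 7.80 and 8.88 in the arrays labelled CCR2+ and between 7.76 and 8.22 in the others, and Cox7b2 between 5.99 and 6.23 and between 6.03 and 6.32. Cox8b, a muscle form, lay between 7.43 and 7.94 and between 7.64 and 8.77, and Cox8c, a testis form, between 7.74 and 8.42 and between 7.63 and 7.96. With quantile normalization over 16 arrays, the one call among these genes was Cox6b2 in RbpjiΔEC mice, at −0.35 ± 0.12 (adjusted p = 0.0284), with array 1 labelled CCR2+ at 7.64 and the other 3 of its group between 7.18 and 7.26.

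Complex V makes ATP from ADP as protons pass its rotor. In its catalytic head and central stalk, none of 5 genes was called higher and 1 was called lower in control mice (median 0.03), and 2 were called lower in RbpjiΔEC mice (median −0.30). In control mice 2 and 3 of the 5 were called higher under median centring and quantile normalization within labels, with none lower. In the peripheral stalk, which holds the head still, 2 of 4 were called higher in control mice (Atp5j and Atp5o, median 0.26) and none in RbpjiΔEC mice (median 0.09), and all 4 were called higher in control mice under both other scalings. Of the 5 small membrane subunits 3 were called higher in control mice, Atp5l, Atp5mpl and Atp5md, with a median of 0.39, and under both other scalings all 5. In RbpjiΔEC mice Atp5mpl and Atp5md were called, with a median of 0.33 over the 5.

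Atp5l, subunit g of the membrane part, was at 10.31, 10.72, 10.33 and 11.45 in arrays 1 to 4 labelled CCR2+ of control mice and at 10.06, 10.34, 10.82 and 10.91 in those of RbpjiΔEC mice. Under the label CCR2- it was at 9.92, 9.74, 9.86 and 10.06 in control mice and at 10.09, 9.91, 10.06 and 9.82 in RbpjiΔEC mice. Control arrays of the 2 labels did not overlap, with array 4 labelled CCR2+ well above its group, and in RbpjiΔEC mice array 1 labelled CCR2+ lay within the range of the others. The differences were 0.81 ± 0.22 (adjusted p = 0.00717) and 0.56 ± 0.22 (adjusted p = 0.0548, not called). In RbpjiΔEC mice Atp5l was called under median centring, at 0.86 (adjusted p = 0.0108), and under quantile normalization within labels, at 0.90 (adjusted p = 0.00403). Atp5mpl, a small proteolipid of the complex, differed by 0.58 ± 0.11 in control mice (adjusted p = 0.000524) and by 0.41 ± 0.11 in RbpjiΔEC mice (adjusted p = 0.00715).

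Atp5a1, the alpha subunit of the catalytic head, was lower in the arrays labelled CCR2+ under quantile normalization. Its level was 13.06, 13.22, 13.01 and 12.91 in arrays 1 to 4 labelled CCR2+ of control mice, and 13.41, 13.02, 13.15 and 13.19 in those of RbpjiΔEC mice. The arrays labelled CCR2- gave 13.73, 13.33, 13.55 and 13.33 in control mice and 13.54, 13.68, 13.44 and 13.52 in RbpjiΔEC mice. The groups did not overlap within either genotype. The differences were −0.44 ± 0.11 (adjusted p = 0.00369) and −0.35 ± 0.11 (adjusted p = 0.0163). In control mice the difference was −0.06 under median centring (adjusted p = 0.78), −0.10 under quantile normalization within labels (adjusted p = 0.484) and −0.14 with the mean of its 3 probe sets (adjusted p = 0.114), none of them called. Of the 3 probe sets 1 was positive, at 0.15. Atp5b, the catalytic beta subunit, stood at −0.18 ± 0.10 in control mice, not called, and at −0.30 ± 0.10 in RbpjiΔEC mice (adjusted p = 0.0295). Under the other scalings Atp5b was positive, at 0.37 and 0.29 in control mice, the latter called (adjusted p = 0.0294), and at 0.09 and 0.17 in RbpjiΔEC mice, neither called.

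The c ring of the rotor is encoded by 3 genes, Atp5g1, Atp5g2 and Atp5g3, whose mature proteins are identical and whose import sequences differ. None was called in either genotype with quantile normalization over 16 arrays. Atp5g1 was at 10.24, 10, 10.08 and 10.69 and at 9.98, 10.19, 10.07 and 10.10 in the arrays labelled CCR2+ of control and RbpjiΔEC mice, and at 9.27, 9.69, 9.54 and 10.50 and at 9.44, 9.82, 10.02 and 9.83 in those labelled CCR2-. The difference in control mice was 0.50 ± 0.21 (adjusted p = 0.0716), and without array 4 labelled CCR2-, the high one of its group, it was 0.75 (adjusted p = 0.00156). Atp5g1 was called in control mice under median centring, at 0.83 (adjusted p = 0.0213), under quantile normalization within labels, at 0.81 (adjusted p = 0.00369), and with the replicate number as a block (adjusted p = 0.0347). In RbpjiΔEC mice its difference was 0.31 (adjusted p = 0.283), and 0.61 under quantile normalization within labels (adjusted p = 0.0223, called). Atp5g2 was at 9.75, 9.72, 9.55 and 10.19 and at 9.41, 9.76, 9.75 and 9.60 in the arrays labelled CCR2+, and at 9.65, 9.76, 9.84 and 10.21 and at 9.78, 9.80, 9.70 and 10.02 in those labelled CCR2-. Atp5g3 was at 12.77, 12.80, 12.82 and 12.72 and at 12.91, 12.65, 12.70 and 12.81, and at 13.07, 12.82, 12.94 and 12.91 and at 12.96, 12.96, 12.85 and 12.93. The labels overlapped for Atp5g2 in both genotypes, and the differences of Atp5g2 and Atp5g3 in control mice, −0.06 and −0.15, turned positive under both other scalings, with Atp5g3 called at 0.26 under quantile normalization within labels (adjusted p = 0.0108).

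**Figure D3:**
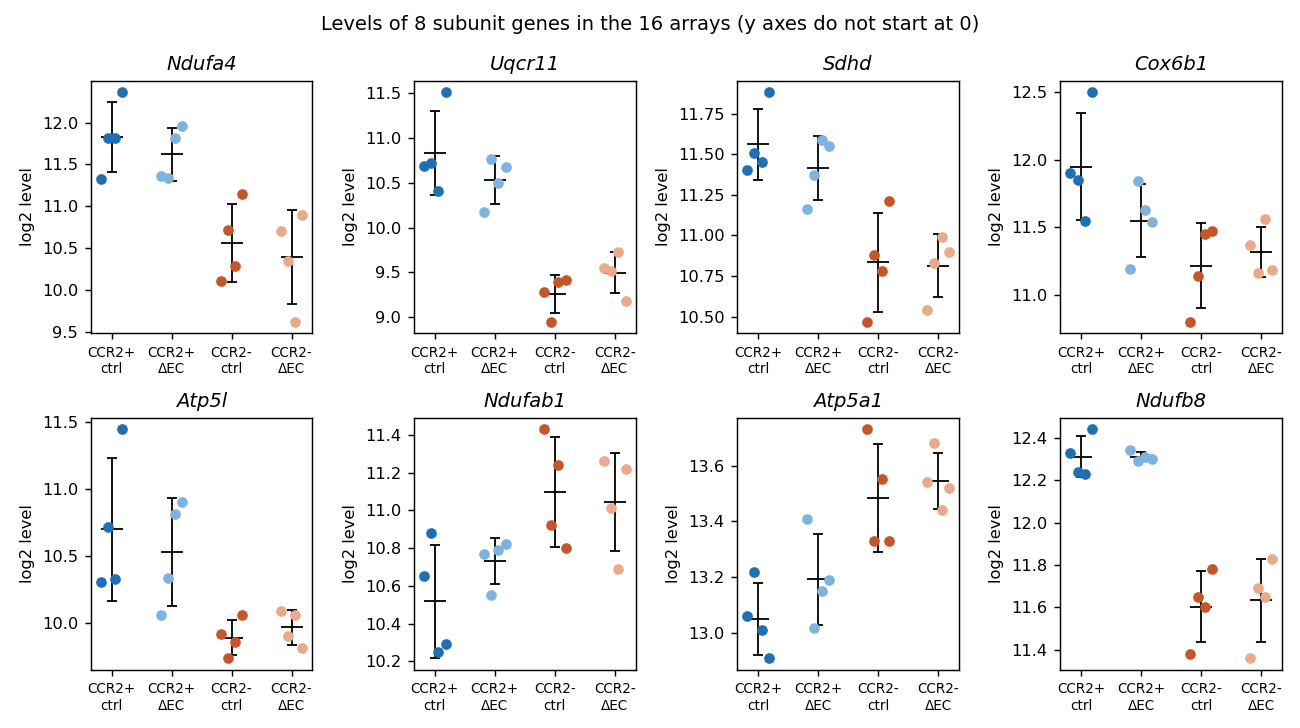
Log2 level (y axis, not from 0) of 8 subunit genes in the 16 arrays, by sort label and genotype, with ctrl for control and ΔEC for RbpjiΔEC mice. Points are arrays and black marks are means ± SD of 4 arrays, with Uqcr11 at least 10.17 in every array labelled CCR2+ and at most 9.73 in every other. Ndufab1 and Atp5a1 have the lower means in the groups labelled CCR2+, and the other 6 genes the higher ones.

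Probe sets of 1 gene did not always go the same way. The 82 members had 169 probe sets, with 1 for 33 genes and several for 49. Of these 49, 16 had probe sets of opposite sign between the labels in control mice. Of the 20 called members with several probe sets 7 did, and 6 of 19 when only probe sets above the lowest tercile were counted. With the mean of all probe sets 33 members were called in control mice.

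The genes that build, feed and regulate the complexes are set here beside all genes, of which 19.4% were called higher and 21.4% lower in control mice, and beside the other scalings. Of 46 measured assembly factors and chaperones 4 were called higher and 12 lower in the arrays labelled CCR2+ of control mice (8.70% and 26.1%, median −0.10). This balance turned under the other scalings, with 14 higher and 3 lower under median centring (median 0.21) and 17 higher and 3 lower under quantile normalization within labels (median 0.20). Single genes ran from Pet100, a factor for complex IV, at 0.91 ± 0.20 (adjusted p = 0.00149) to Ttc19, a factor for complex III, at −0.98 ± 0.23 (adjusted p = 0.00274). Of 18 electron carriers and their enzymes 6 were called higher (33.3%) and none lower (median 0.21), and under the other scalings 9 and 10 higher and none lower, with the ubiquinone synthesis gene Coq7 at 1.02 ± 0.16 (adjusted p = 6.82e-05). Of 17 genes of the tricarboxylic acid cycle 4 were called higher and 1 lower (23.5% and 5.88%, median 0.02), and under the other scalings 5 and 10 higher and none lower. Idh2, an isocitrate dehydrogenase, was at 1.08 ± 0.17, and citrate synthase Cs was at −0.38 ± 0.10 but at 0.18 and 0.10 under the other scalings, neither called. Of 17 carrier and uncoupling genes 9 were called higher and 2 lower (52.9% and 11.8%, median 0.38), and under the other scalings 13 and 13 higher and 0 and 1 lower, with Ucp1, which uncouples respiration in brown fat, at 1.39 ± 0.19 and Slc25a4, an ADP/ATP exchanger, at −0.85 ± 0.11. Slc25a4 was at −0.31 under median centring, not called (adjusted p = 0.231), and at −0.39 under quantile normalization within labels (adjusted p = 0.00655).

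Of 20 nuclear regulators known to drive or adjust these genes 4 were called higher and 11 lower (the latter 55.0%), with a median of −0.44, and under the other scalings 4 and 5 were called higher and 7 and 8 lower, with medians of −0.12 and −0.16. The proto-oncogene Myc, known to drive growth and mitochondrial genes, stood at −1.66 ± 0.26 (adjusted p = 6.18e-05) and Tfb1m, a methyltransferase of mitochondrial ribosomal RNA, at 1.00 ± 0.19 (adjusted p = 0.000503). Picked after their values were seen, Nrf1 was at −1.03 (adjusted p = 7.91e-05), Tfam, the mitochondrial DNA packaging factor, at −0.97 (adjusted p = 9.98e-07), and Ppargc1b, a coactivator, at 0.84 (adjusted p = 3.47e-05). In RbpjiΔEC mice the regulators again had 4 genes called higher and 11 lower, with a median of −0.40, and the other scalings gave 5 and 6 higher and 5 and 7 lower there. Of the 76 mitochondrial ribosomal protein genes 19 were called higher and 6 lower in control mice (25.0% and 7.89%, median 0.16), where the other scalings gave 39 and 46 higher and 1 and 3 lower, and 4 higher and 14 lower in RbpjiΔEC mice (median −0.02), where they gave 11 and 28 higher and 2 and 3 lower. Of the subunits encoded in mitochondrial DNA only ND5 of complex I was measured under 1 symbol, at 0.83 ± 0.18 in control mice (adjusted p = 0.0013) and 0.47 in RbpjiΔEC mice (adjusted p = 0.0508, not called). ND5 was at 10.59, 11.75, 11.55 and 11.53 in arrays 1 to 4 labelled CCR2- of control mice, so array 1 lay far below its group. In those of RbpjiΔEC mice it lay between 11.50 and 11.74. Values of ND5 under the other scalings are not given here.

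Deletion of Rbpj in endothelial cells was next compared with control within each label, which asks whether the sorted cells' subunit genes differ with the vessels' genotype. These comparisons use the same arrays as those between the labels, so their values are not independent of them. In the arrays labelled CCR2+ no subunit gene was called, nor was any of all 18194 genes (0%). At an unadjusted limma p under 0.05 stood 3 members (3.66%), against 4.56% of all genes. The estimates leaned one way: 72 of 82 were negative, with a median of −0.12 log2 units against −0.01 over all genes. The sign was the same under the 3 scalings for 79 members.

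Most estimates were negative in every complex. They numbered 33 of 36 in complex I, 4 of 4 in complex II, 7 of 8 in complex III, 13 of 17 in complex IV and 15 of 17 in complex V. Single arrays carried unequal parts of this balance. Control array 4 was the highest of its 4 arrays for 60 of 82 members, against 30.5% of all genes, and its median over the members was 11.83 against 11.43 to 11.50 in the other 3. Control array 3 was the lowest of its group for 44 members, against 27.8% of all genes. RbpjiΔEC array 1 was the lowest of its group for 43 members, against 30.3% of all genes, with a median of 11.24 against 11.38 to 11.47. Leaving out each of the 8 arrays in turn gave medians from −0.17 to −0.04 and 56 to 70 negative estimates, all medians being negative. Without control array 4 the median was −0.04, without RbpjiΔEC array 1 it was −0.08, and without control array 3 it was −0.17, with 70 estimates negative.

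**Figure D4:**
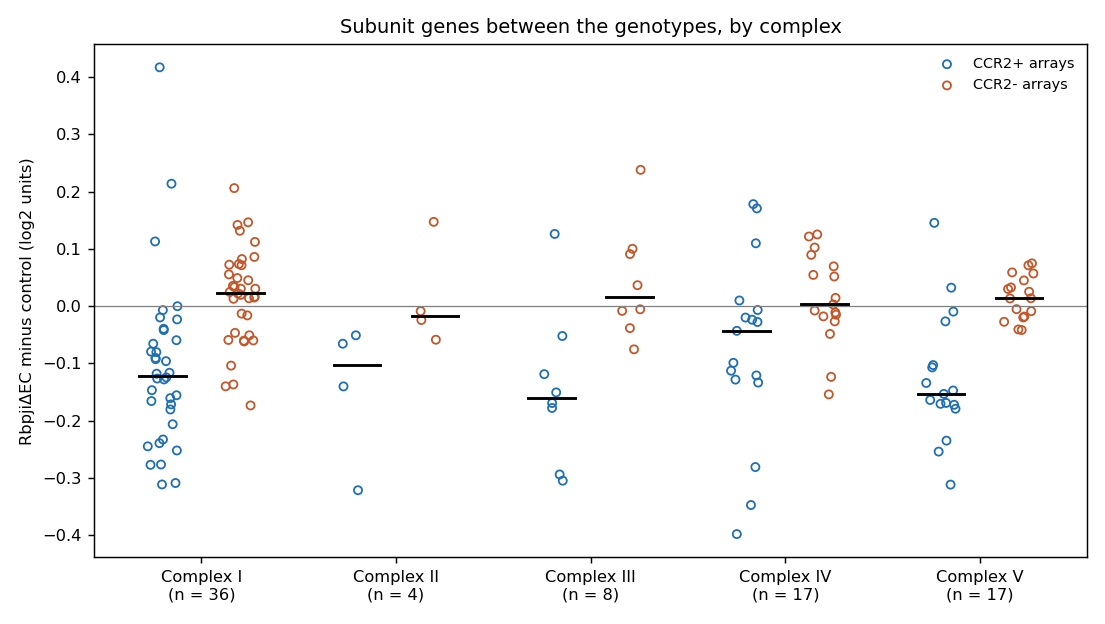
Difference between RbpjiΔEC and control (log2 units, y axis) of the 82 subunit genes by complex, in the arrays labelled CCR2+ and in those labelled CCR2-, with 4 arrays a group. Black bars are medians, and no gene was called in either. Among the arrays labelled CCR2+ 72 of 82 points lie below 0, and among those labelled CCR2- 34.

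Other measures differed between these arrays as well, some along with the subunit genes and some not. The mitochondrial ribosomal proteins had a mean log2 level of 10.43 in control array 4 labelled CCR2+ against 9.94 to 10.18 in the other 3, with array 3 lowest, and of 9.86 in RbpjiΔEC array 1 against 9.999 to 10.11. Of their 76 genes 70 had negative estimates between the genotypes, with a median of −0.17, and so did 17 of 18 electron carriers and their enzymes. The 18S RNA probe sets read 13.52 in control array 4, the highest of the 8 arrays labelled CCR2+, and 12.42 in RbpjiΔEC array 1, the lowest. The 3′ minus 5′ difference of the actin control probe sets, a sign of RNA quality, was 0.21 in control array 4, inside the 0.20 to 0.36 of the other 3 control arrays, and 0.44 in RbpjiΔEC array 1, against 0.24 to 0.44 in the other 3 of that group. Both measures also differed between the genotypes. RbpjiΔEC arrays 1, 3 and 4 read 0.44, 0.42 and 0.44 for actin, above every control array, and array 2 read 0.24. For 18S RNA arrays 1, 3 and 4 read 12.42, 12.46 and 12.48, below the lowest control array at 12.62, and array 2 read 13.24. The 3′ minus 5′ difference of the Gapdh control probe sets averaged 0.20 in control and 0.19 in RbpjiΔEC arrays. The 9 epithelial and mesothelial markers averaged 7.85 in control array 4 against 7.34 to 7.59 in the other 3, and 7.40 in RbpjiΔEC array 1, inside the 7.03 to 7.46 of its group, and 8 of 9 had negative estimates between the genotypes. The neutrophil markers had 8 of 8 negative estimates, but averaged 8.53 in control array 2 and only 7.498 in control array 4, the lowest of that group, with 7.47 in RbpjiΔEC array 1 against 7.43 to 7.49 in the other 3. The part of any of these in the subunit genes was not tested.

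Single members with the smallest p in this comparison were as follows. Ndufa4l2, a relative of Ndufa4 known to respond to low oxygen, was at 7.80, 7.81, 7.84 and 8.04 in control arrays 1 to 4 and at 8.21, 8.20, 8.30 and 8.44 in the RbpjiΔEC arrays. The groups did not overlap, which held in this direction for 1 member (1.22%) against 2.08% of all genes, and the difference was 0.42 ± 0.18 (exact permutation p = 0.0286, the smallest that 4 against 4 arrays can give, and limma adjusted p = 0.966, not called). With the label CCR2- it was at 7.99, 7.34, 8.12 and 7.44 in control mice and at 8.35, 7.88, 7.42 and 7.80 in RbpjiΔEC mice, which overlap. Atp5a1 at 0.15 ± 0.11 and Ndufab1 at 0.21 ± 0.17 had the next smallest p among positive estimates and were not called.

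Cox5b, a zinc-binding subunit of complex IV, was at 13.21, 13.08, 13.15 and 13.28 in the control arrays labelled CCR2+ and at 12.54, 13.18, 13.00 and 12.88 in the RbpjiΔEC arrays. The groups overlapped through RbpjiΔEC array 2, and the difference was −0.28 ± 0.12 (exact permutation p = 0.0857, limma adjusted p = 0.966, not called). Atp5h, subunit d of the peripheral stalk, was at 12.60, 12.52, 12.51 and 12.75 and at 12.03, 12.48, 12.46 and 12.39. All 4 RbpjiΔEC arrays lay below all control arrays, by 0.03 at the nearest, which held in this direction for 1 member (1.22%) against 1.30% of all genes. The difference was −0.25 ± 0.12 (exact permutation p = 0.0286, limma adjusted p = 0.966, not called). Cox6b1 followed at −0.40 ± 0.19 (exact permutation p = 0.143, limma adjusted p = 0.966, not called). The second probe set of Cox6b1 gave −0.18.

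In the arrays labelled CCR2- no member and no gene of the 18194 was called between the genotypes (0%). No member had an unadjusted limma p under 0.05, against 2.14% of all genes. In no member did the groups fail to overlap, against 0.758% of all genes with all RbpjiΔEC arrays lower and 0.797% with all of them higher. The median difference was 0.02, and 34 of 82 estimates were negative. Here too single arrays set the balance of signs. Control array 4 was the highest of its group for 64 members, against 31.5% of all genes, and control array 1 the lowest for 55, against 29.2%. Without array 1, 60 estimates were negative (median −0.04), and without array 4, 13 were (median 0.07). Control array 1 stood apart in other measures too. Its monocyte and small macrophage markers averaged 11.03, against 9.67 to 9.90 in the rest of its group. Its 18S RNA read 11.84 against 12.56 to 12.96, and its Gapdh 3′ minus 5′ difference −0.09 against 0.08 to 0.22. Its deposited mean was 481 against 590 to 762, while its actin difference was 0.36 against 0.31 to 0.36. The part of these in the subunit genes was not tested. The smallest p among positive estimates belonged to Cox7b2 (0.13 ± 0.08), Ndufb1 (0.21 ± 0.16) and Sdhc (0.15 ± 0.12), and among negative ones to Ndufs1 (−0.14 ± 0.16), Cox8a (−0.15 ± 0.19) and Ndufb3 (−0.10 ± 0.13). None of these 6 was called.

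The interaction, which asks whether the genotype difference is itself different between the labels, was called for no member and for no gene (0%). No member had an unadjusted limma p under 0.05, against 3.05% of all genes. Of 82 estimates 70 were negative, with a median of −0.13. Leaving out each array in turn gave medians from −0.21 to −0.05 and 55 to 74 negative estimates. The smallest p among negative estimates belonged to Uqcr11 (−0.54 ± 0.28), Cox6b1 (−0.50 ± 0.28) and Ndufb7 (−0.44 ± 0.25), and among positive ones to Ndufab1 (0.26 ± 0.24), Cox8b (0.30 ± 0.27) and Ndufa4l2 (0.28 ± 0.26). None was called, with an adjusted limma p of 0.999 for each. A second probe set of Ndufb7 gave label differences of 0.45 in control and 0.26 in RbpjiΔEC mice. The one used gave 0.35 and −0.09, which lie further apart. The second probe set of Cox6b1 gave 0.76 and 0.53, also nearer to each other than those of the one used.

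Within the groups the subunit genes varied together from array to array. Control array 4 lay above its group's mean for 71 of 82 members in the arrays labelled CCR2+ and for 68 in those labelled CCR2-. The median deviation of the members from the group mean was 0.23 and 0.21 log2 units in these 2 arrays. Same-numbered arrays of the 2 labels had median deviations of one sign in 7 of 8 pairs. The lowest median deviations were −0.18 in CCR2- control array 1, −0.17 in CCR2+ RbpjiΔEC array 1 and −0.16 in CCR2+ control array 3. The median SD of a member over 4 arrays was 0.22 in CCR2+ control, 0.20 in CCR2+ RbpjiΔEC, 0.20 in CCR2- control and 0.12 in CCR2- RbpjiΔEC, against 0.16, 0.16, 0.17 and 0.15 over all genes. The members thus varied more than the typical gene in the first 3 groups and less in CCR2- RbpjiΔEC, with no test of that difference.

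**Figure D5:**
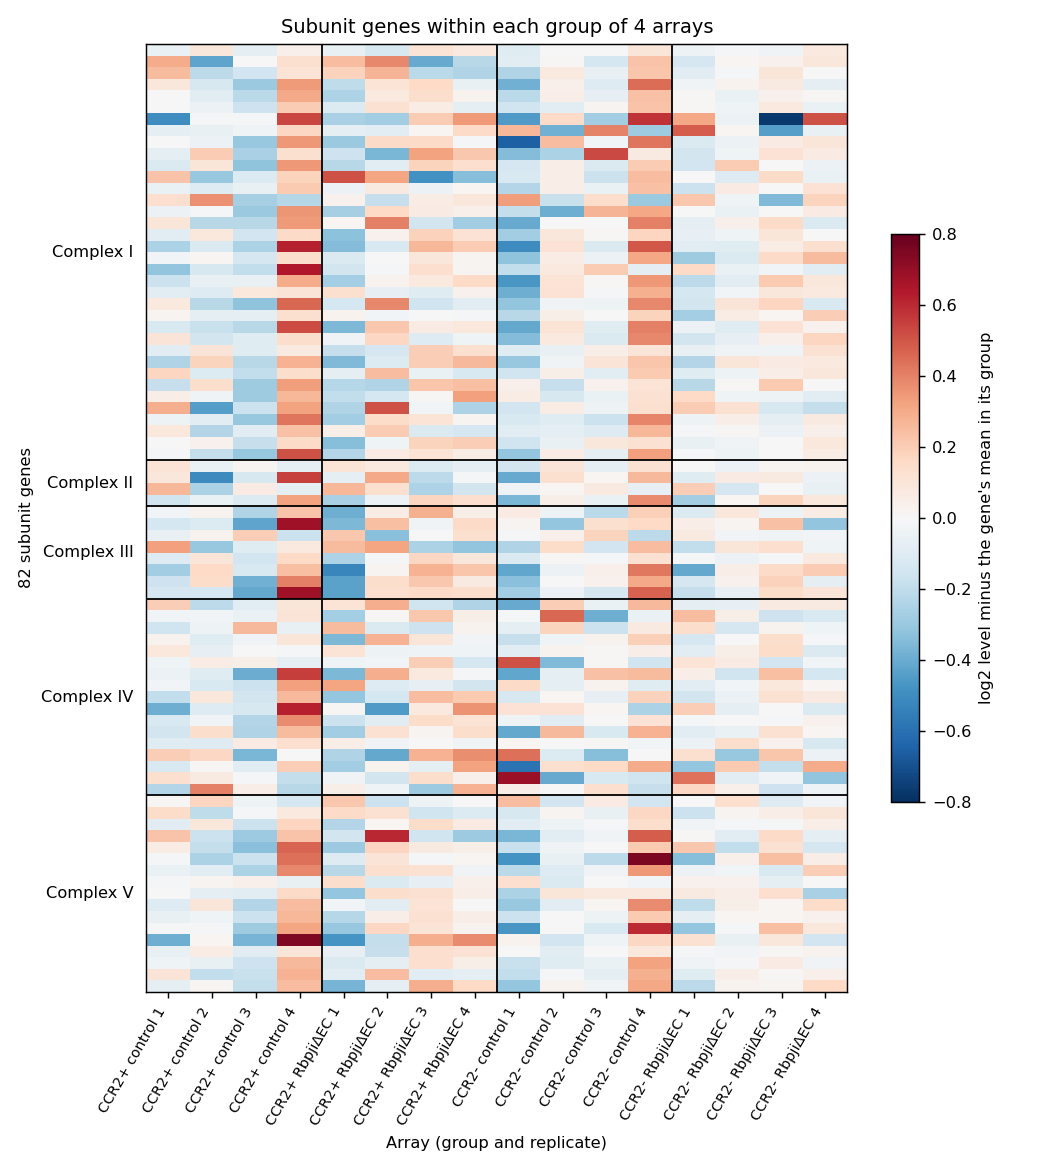
Log2 level of each of the 82 subunit genes minus its mean in its group of 4 arrays, with arrays in columns and genes in rows by complex (colour scale from −0.8 to 0.8 log2 units, values beyond it shown at its ends). Array 4 is red over most rows in both control groups, with 71 and 68 members above their group mean, and CCR2- control array 1 is blue over most rows.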

How the data were processed

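Peritoneal cells of 4 groups were measured on 16 Affymetrix mouse arrays. The deposited values are linear intensities for 45101 probe sets. Any normalization by the authors before deposit is not given in the labels or headers. Here they were log2 transformed and quantile normalized over the 16 arrays. Probe sets were used where they carried exactly 1 symbol, which drops 932 with several, and the one with the highest mean stood for each of the 18194 genes. Each comparison was a two-sided contrast in limma 3.58.1 (R 4.3.3), fitted with a mean for each group. The fit covered all 16 arrays, so the comparisons share 1 estimate of the spread per gene. The p-values were adjusted by Benjamini and Hochberg's method across the genes, and an adjusted p under 0.05 was a call. The method was tested on simulated data. Errors of differences are standard errors, and errors of means are SDs over 4 arrays. Without hybridization or scan dates no batch was examined. Precision is limited by having 4 arrays in a group.

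The members, lists, role groups and tests were chosen with earlier results of these data known. Named with values were, per complex, the called members with the largest difference between labels in control mice, the isoform families, the 3 smallest p in each direction in the genotype comparisons and the interaction, and the largest called members of each pathway list. Isoforms of restricted tissues are given by their ranges. Genes outside the rule are said to be so, or stand among the calls of a complex. Alternatives were median centring, quantile normalization within labels, a filter at the lowest tercile, the mean of all probe sets, an offset of 50, array weights, trend and robust variance, only the groups compared, the replicate number as a block, and each array left out.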

Additional observations from a re-analysis of the deposited data

Results flagged for a closer look

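Of 124 groups of 4 arrays examined for the named members, 6 held an array far from the other 3 by Dixon's ratio, about as many as the 1 in 20 that chance gives. In CCR2+ RbpjiΔEC, Ndufab1 was at 10.55 in array 2, with the others between 10.77 and 10.82, and Ndufb7 at 11.46 in array 2, with the others between 10.92 and 10.99. In the same group array 1 stood apart for Cox6a1, at 12.98 against 12.83 to 12.84, and for Cox6b2, at 7.64 against 7.18 to 7.26. Atp5h was at 12.16 in CCR2- control array 1, with the others between 12.49 and 12.51. Ndufs1 was at 10.50 in CCR2- RbpjiΔEC array 1, with the others between 10.80 and 10.83.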

How the results depend on the processing

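Between the labels in control mice, median centring gave 57 called members, 57 higher and 0 lower, and quantile normalization within labels 66, of which 64 higher. In RbpjiΔEC mice the same settings gave 33 (31 higher, 2 lower) and 55 (53 higher, 2 lower), and array weights 36 (26 higher, 10 lower). The cause was not tested. Leaving out each array in turn gave 23 to 36 called members in control mice (20 to 34 higher, 2 to 4 lower) and 15 to 22 in RbpjiΔEC mice (13 to 18 higher, 2 to 5 lower). The 2 lower calls there came without array 3 or 4 labelled CCR2+, or without array 2, 3 or 4 labelled CCR2-. The replicate block, which put same-numbered arrays of all 4 groups together, gave 34 and 28 called members, and no call in the genotype comparisons or the interaction. It thus joined arrays of different genotype as well, whose deviations correlated at −0.38 to 0.19 within a label. Within a genotype, same-numbered arrays of the 2 labels correlated in their deviations from the group means at −0.03 to 0.40, with 7 of 8 pairs positive, 4 above 0.1 and 6 higher than with any other number. Not every pair passed 0.1 and the labels name no mouse, so the numbers were not treated as pairs. The genotype comparisons and the interaction had 0 called members under every alternative run.

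Of the values for single named members under the alternatives, 740 kept their direction and side of the threshold, 13 passed it, 5 no longer did and 20 changed sign. None of the 20 was called with quantile normalization over 16 arrays, while Cox7b2 and Atp5g3 were called with the other sign under quantile normalization within labels. Between labels in control mice, Cox4i1 was −0.020 with array weights and −0.060 to 0.16 with 1 array left out, and was called at 0.61 with median centring and 0.53 with quantile normalization within labels. Cox4i2 was −0.26 to 0.024 with 1 array left out, and Cox7a1 −0.040 without both control arrays 4, a setting chosen after seeing the data. Cox7a2l was −0.059 with array weights and −0.11 to 0.12 with 1 array left out. Cox7b2 was −0.20 with median centring, −0.24 with quantile normalization within labels, −0.0093 without both control arrays 4 and −0.0028 to 0.076 with 1 array left out. Atp5g2 was 0.26 and 0.23 with those 2 scalings and −0.19 to 0.050 with 1 array left out, and Atp5g3 was 0.36 and 0.26 with the 2 scalings. Between genotypes in CCR2+ arrays, Atp5a1 was −0.0066 with the mean of its probe sets.

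The sort labels coincide with the kind of deposited column and with large peritoneal macrophage and B cell marker levels. No array has a detection call, and 4 arrays a group leave small genotype differences unresolved.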
